A study of Rattus norvegicus with 13 samples.

Results

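Solute carriers are the membrane proteins that move amino acids, sugars, ions, metals, vitamins and metabolites across the plasma membrane and the membranes of organelles. The genes described here are those whose rat symbol is Slc followed by a digit. The microarray held probes for 292 such genes, and 229 of them passed the filter of a signal well above background on at least 3 of the 13 arrays. The other 63 were not tested. They include Slc7a11, the cystine and glutamate exchanger, and Slc2a2, the glucose transporter of liver and pancreatic islets. The genes were grouped by what they carry, mostly by gene family. Through its symbol, Slc7a6os was counted among the amino acid carriers, although it is named for lying opposite Slc7a6 and is not known as a carrier. It was called in no comparison.

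RNA came from mammary tissue of female Sprague-Dawley rats in 3 groups. The first group was 3 samples of normal mammary tissue from rats that were not irradiated. Carcinomas of the IR-3W group (n = 4) arose in rats given whole-body gamma rays from 137Cs at 3 weeks of age, before puberty. Those of the IR-7W group (n = 6) arose after the same exposure at 7 weeks, after puberty. The dose was 2 Gy at 0.6 Gy per minute, a diet with 23.5% corn oil was given after week 9, and tumours were taken at 50 weeks. The labels put the normal rats at 7 weeks in one place and call them age-matched in another, so age and tumour cannot be told apart in the comparisons with normal tissue. The corn oil diet is given for the carcinoma groups and not for the normal rats, so diet and tumour cannot be told apart there. There was no carcinoma from an unirradiated rat, so radiation and tumour formation cannot be told apart either. The labels do not say that each sample came from a different rat, so a p-value here reflects no more than sample-to-sample spread, part of which may be technical.

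In the mammary gland, solute carriers feed the milk-secreting epithelium with glucose, amino acids, phosphate and zinc, and the surrounding fat cells carry a set of their own. Slc2a4 is the insulin-responsive glucose transporter of fat and muscle, and Slc36a2 and Slc7a10 are amino acid transporters known from the surface of fat cells. Tumour cells of many tissues are known for high levels of Slc2a1, which takes up glucose, Slc16a3, which exports lactate, and Slc1a5 and Slc7a5, which carry glutamine and large neutral amino acids.

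Values are log2 signals relative to the 75th percentile of the same array, so that 0 is the level of that percentile. The normal arrays were dimmer, with a 75th percentile of 82.3 to 179 signal units against 276 to 1242 in the carcinomas. They also had fewer spots well above background, 48.7% to 54.2% against 58.0% to 71.0%. All normal arrays lay on 1 slide read by 1 scanner, and all carcinomas on other slides read by another scanner, so slide, scanner and group cannot be told apart there. Markers of fat cells were far lower in most carcinomas. The summed level of 18 fat cell markers, in multiples of the 75th percentile, was 367 to 415 in normal tissue and 17.6 to 30.2 in IR-7W. In IR-3W it was 37.7, 14.6, 251 and 29.4, so the third IR-3W carcinoma stood apart in this sum. The sum follows its brightest markers, and the markers did not all move together. Over the IR-3W carcinomas Cidea had a mean log2 signal of 0.94 with an SD of 4.25, against 3.47 in normal tissue. Pck1 had a mean of -4.42 with an SD of 0.24, against 1.98. The third IR-3W carcinoma also had a summed level of 6767 for 8 milk protein genes, against 279 to 1156 in the other IR-3W carcinomas, 469 to 1927 in IR-7W and 1319 to 1465 in normal tissue. For the genes named, calls that were lost or gained without this carcinoma are given with it and without it. Endothelial markers were also lower in IR-7W, where 8 of 11 fell, with a summed level of 45.3 to 59.6 in normal tissue, 14.9 to 94.9 in IR-3W and 9.62 to 18.8 in IR-7W. Kdr was the brightest of these markers, at a mean of 5.10 in normal tissue, and weighs most in the sum. In IR-3W 2 of the 11 markers fell, and their median difference was -0.97. Their part in the falls of solute carriers was not tested.

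Of the 229 solute carrier genes, 7 rose and 22 fell in IR-3W carcinomas against normal tissue, at an adjusted p under 0.05. Together they are 12.7% of the genes, against 14.6% of all 25391 features tested. Among those features 9.23% were higher and 5.40% lower, and among features with a gene symbol 6.48% were higher and 7.52% lower. The solute carriers called higher were 3.06% of the 229 and those called lower 9.61%. In IR-7W carcinomas 15 rose and 30 fell, or 19.7%, against 20.8% of all features. The background there was 11.9% higher and 8.90% lower over all features, and 8.96% and 11.6% over those with a symbol. The share of genes called was thus near the background in both comparisons. The median log2 difference of the 229 genes was -0.18 in IR-3W and -0.25 in IR-7W, against -0.16 and -0.14 over features with a symbol. Both comparisons used the same 3 normal samples. The arrays of carcinomas and normal tissue did not overlap in 20 genes that were higher and 36 that were lower in IR-3W, and in 24 and 41 in IR-7W. Over all features 13.4% were apart higher and 11.5% lower in IR-3W, and 14.9% and 14.1% in IR-7W. Side by side, 18 genes fell in both, 6 rose in both and none was called in opposite directions. The shared normal samples favour such agreement in any set of genes, and the same counts were not made over all features.

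Without the third IR-3W carcinoma, 12 solute carriers rose and 28 fell in IR-3W, against a background of 19.7% of all features. Of the 29 genes called with all arrays, 23 were called again, and the 6 that were not were Slc1a5, Slc6a6, Slc15a2, Slc25a27, Slc25a44 and Slc46a3. Their differences lay between -2.15 and -0.99 with adjusted p from 0.0586 to 0.0787. The count of IR-3W genes also moved with the normal samples, to 13 without the first of them and 12 without the second. In IR-7W it was 28 without the second normal sample. Several calls of genes named by rule were lost in many of the 24 alternative settings. In IR-3W these were Slc25a16 (lost in 14), Slc17a5 (in 12), Slc1a5, Slc6a6 and Slc35b1 (in 11 each) and Slc5a6 and Slc46a3 (in 9 each). In IR-7W they were Slc27a1 (in 10), Slc16a13 (in 9) and Slc35f5 (in 8).

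**Figure D1:**
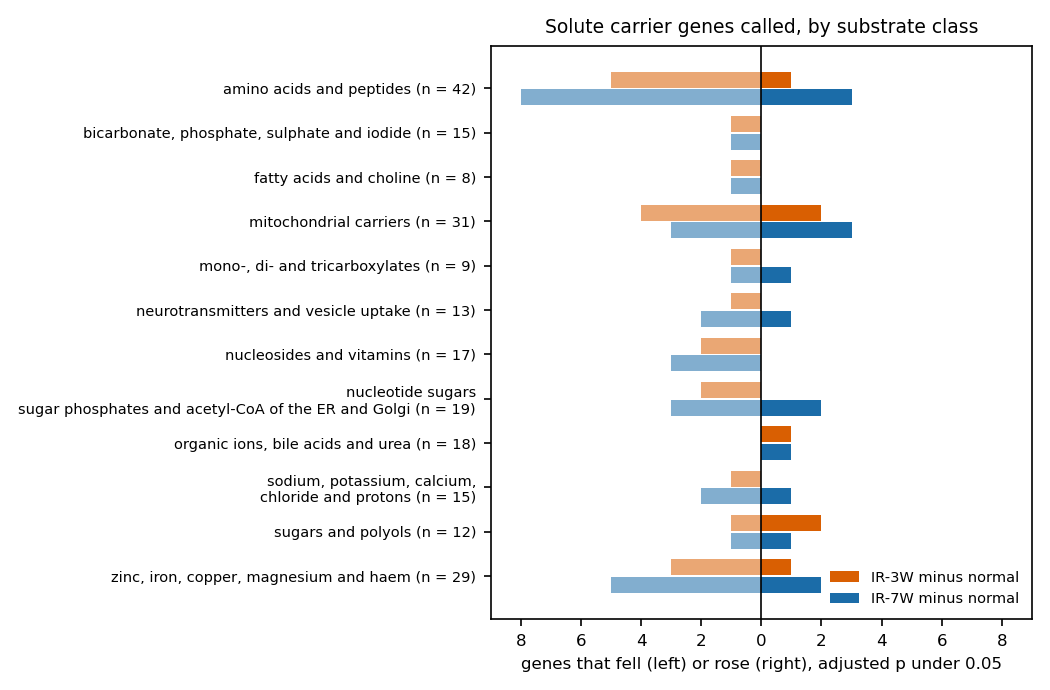
Number of solute carrier genes in each substrate class that fell (bars to the left, pale) or rose (bars to the right, dark) in IR-3W (orange) and IR-7W (blue) carcinomas against normal tissue at an adjusted p under 0.05, with the number tested in each class. The largest class, 42 amino acid and peptide carriers, had 5 falls (11.9%) in IR-3W and 8 (19.0%) in IR-7W, against 9.61% and 13.1% of all 229 genes.

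Among the 42 amino acid and peptide carriers, 5 fell and 1 rose in IR-3W and 8 fell and 3 rose in IR-7W. The median log2 difference of the class was 0.09 in IR-3W and -0.46 in IR-7W. Slc36a2, a proton-coupled transporter of small amino acids, had the lowest difference of all 229 genes. Its log2 signal was -1.03, -0.91 and -0.61 in normal tissue. It was -6.25, -7.98, -6.24 and -7.44 in IR-3W and between -8.14 and -6.43 (median -6.91) in IR-7W. No carcinoma gave a signal well above background, so the fold is uncertain. By its fitted difference Slc36a2 was 69.8-fold lower in IR-3W (adjusted p = 1.4e-05) and 79.3-fold lower in IR-7W (adjusted p = 4.58e-06). Over the alternative settings the log2 difference ran from -6.43 to -1.56 in IR-3W and from -6.51 to -2.65 in IR-7W, and no setting lost the call. In samples of whole tissue such as these, fewer cells of a type and less RNA per cell cannot be told apart. Of the 18 fat cell markers, 15 fell in IR-3W and 17 in IR-7W, and 12 of the 18 were well above background on all 13 arrays. Their part in the falls of solute carriers was not tested.

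Slc7a10 is a sodium-independent exchanger of small neutral amino acids. Its log2 signal was 3.65, 2.48 and 2.79 in normal tissue and -3.69, -2.84, 3.36 and 1.38 in IR-3W. In IR-7W it lay between -3.33 and -1.17 (median -2.64). It was low in all 6 IR-7W carcinomas and in 2 of the 4 IR-3W carcinomas, while the third IR-3W carcinoma lay within the normal range. The gene fell by 5.40 ± 1.24 (SE) on the log2 scale in IR-7W (adjusted p = 0.00895). The IR-3W difference of -3.41 ± 1.34 did not pass (adjusted p = 0.108), and without the third carcinoma it was -4.68 ± 1.07 (adjusted p = 0.0109). A second, dimmer probe of Slc7a10 gave -3.86 in IR-3W (adjusted p = 0.0457) and -5.94 in IR-7W. The difference between the carcinoma groups, 1.98 ± 1.13, did not pass (adjusted p = 0.529).

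The start regions of these 2 amino acid carriers are shown because they had the lowest differences of the class. Each runs from 250 bases before to 50 bases after the annotated start in RefSeq's GRCr8 assembly, printed 5′ to 3′ on the gene's strand. Slc36a2 lies at chr10:39806724-39807023 on the minus strand and Slc7a10 at chr1:96965872-96966171 on the plus strand. Capitals mark a match to one of the 6 motifs searched on both strands, which in Slc7a10 is a GC box (GGGCGG) read on the opposite strand. No motif was found in the Slc36a2 window.
Slc36a2: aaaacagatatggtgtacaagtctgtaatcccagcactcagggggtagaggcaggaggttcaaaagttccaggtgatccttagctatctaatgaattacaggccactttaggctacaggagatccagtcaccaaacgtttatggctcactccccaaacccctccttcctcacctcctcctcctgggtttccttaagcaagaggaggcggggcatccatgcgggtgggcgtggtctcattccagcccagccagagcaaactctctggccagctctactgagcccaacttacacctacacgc
Slc7a10: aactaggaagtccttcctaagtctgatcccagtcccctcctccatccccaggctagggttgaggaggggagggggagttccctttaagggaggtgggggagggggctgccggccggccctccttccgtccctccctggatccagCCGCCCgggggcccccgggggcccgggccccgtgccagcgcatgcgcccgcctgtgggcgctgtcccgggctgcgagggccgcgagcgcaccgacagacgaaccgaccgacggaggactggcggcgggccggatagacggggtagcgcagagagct

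Slc1a5, a sodium-dependent exchanger of glutamine and other neutral amino acids, was lower in every carcinoma than in every normal sample. Its log2 signal was 3.30, 3.06 and 3.74 in normal tissue, 1.10, 2.15, 1.57 and 2.03 in IR-3W, and -0.46 to 1.77 (median 0.40) in IR-7W. The fall was 1.66 ± 0.49 in IR-3W (adjusted p = 0.0408) and 2.91 ± 0.46 in IR-7W (adjusted p = 0.000821). Without the third IR-3W carcinoma the first of these did not pass (adjusted p = 0.0586). Slc6a6 takes up taurine, and its log2 signal was 1.98, 1.02 and 0.81 in normal tissue, -1.99, -1.09, -1.92 and 0.43 in IR-3W, and -2.84 to -0.31 (median -1.92) in IR-7W. It fell by 2.41 ± 0.71 in IR-3W (adjusted p = 0.0387) and by 2.97 ± 0.66 in IR-7W (adjusted p = 0.00732). The IR-3W difference of Slc6a6 was -2.15 without the third carcinoma and did not pass (adjusted p = 0.0683). Slc43a3, whose family carries amino acids and which itself moves purine nucleobases, fell by 2.11 ± 0.52 and 2.99 ± 0.48. Its probe was dim, well above background on 2 arrays of each group.

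Of the peptide carriers, 2 fell in IR-7W and 1 in IR-3W. Slc15a1, the proton-coupled di- and tripeptide transporter of the intestine, had log2 signals of 0.45, -1.41 and -2.63 in normal tissue, -2.83, -1.23, -0.46 and -3.18 in IR-3W, and -5.24 to -2.94 (median -4.56) in IR-7W. It fell by 3.01 ± 0.75 in IR-7W (adjusted p = 0.0141), and the IR-3W difference was -0.73 ± 0.81 (adjusted p = 0.595). Slc15a2, its relative of kidney, fell in IR-3W (-1.68 ± 0.52) and did not pass in IR-7W (-1.27 ± 0.48). The IR-3W difference of Slc15a2 was -1.49 without the third carcinoma and did not pass (adjusted p = 0.0787). Slc15a3, a histidine and peptide carrier of lysosomes, fell in IR-7W (-1.08 ± 0.35), with -0.06 ± 0.38 in IR-3W. None of the 3 passed the test of IR-3W against IR-7W, with adjusted p of 0.171 for Slc15a1, 0.773 for Slc15a2 and 0.197 for Slc15a3. Slc38a3, a glutamine transporter coupled to sodium and protons, fell by 2.31 ± 0.70 in IR-7W.

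Several carriers known for amino acid uptake in tumours did not pass the test here. Slc7a5 and Slc3a2 form the exchanger of large neutral amino acids, Slc7a5 as the transporting subunit and Slc3a2 as its partner. Slc7a5 had log2 signals of -1.25, -0.97 and -1.92 in normal tissue, -1.70, 0.12, 0.01 and -0.85 in IR-3W, and -1.43 to 0.15 (median -0.65) in IR-7W. Its differences of 0.78 ± 0.49 and 0.75 ± 0.45 did not pass, and the groups overlapped. Those of Slc3a2 were -0.77 ± 0.36 and -0.59 ± 0.34. The sodium-coupled neutral amino acid transporter Slc38a2 gave -0.25 ± 0.33 and -0.49 ± 0.31, and the glutamate transporter Slc1a3 gave 0.16 ± 0.42 and -0.86 ± 0.39. Slc6a14, a broad amino acid transporter, ranged from -7.75 to -2.60 over the carcinomas and gave 0.28 ± 1.18 and -0.42 ± 1.09. A miss of the threshold does not show that these levels were the same.

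Amino acid carriers that rose were of low signal. Slc6a9, the glycine transporter GlyT1, was not well above background in normal tissue and lay between -5.07 and -2.98 in the carcinomas. By its fitted difference it was 2.56-fold higher in IR-3W (adjusted p = 0.0271) and 3.81-fold higher in IR-7W (adjusted p = 0.00186). Slc6a20a, a carrier of proline and other imino acids, was also well above background on no normal array. By its fitted difference it was 3.46-fold higher in IR-7W (adjusted p = 0.0146). Slc7a4, a member of the cationic amino acid transporter family, was well above background on all arrays and rose by 1.31 ± 0.34 in IR-7W (adjusted p = 0.0176), with 0.47 ± 0.37 in IR-3W. With normexp background correction the differences of Slc6a9 were -0.16 and -0.65 and that of Slc6a20a in IR-7W was -0.93, so their direction was not the same in every setting. The normexp setting also read the median spot signal, and in it the median difference of all features was -0.21 in IR-3W and -0.55 in IR-7W. Relative to that median, Slc6a9 was at 0.048 and -0.10 and Slc6a20a in IR-7W at -0.38.

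Of 14 tested genes for enzymes and regulators of amino acid supply, 2 rose and 1 fell in IR-3W and 3 rose and 1 fell in IR-7W. Psph, the last enzyme of serine synthesis, rose by 2.11 ± 0.35 in IR-3W and 2.59 ± 0.32 in IR-7W. Gls2, a glutaminase, rose by 2.15 ± 0.54 and 3.20 ± 0.50. Glul, which makes glutamine, fell by 1.72 ± 0.52 in IR-3W, with -0.68 ± 0.48 in IR-7W. Rptor, a subunit of the mTORC1 kinase complex, was called higher in IR-7W (adjusted p = 0.00418), but it was well above background on no normal array, so no fold is given.

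**Figure D2:**
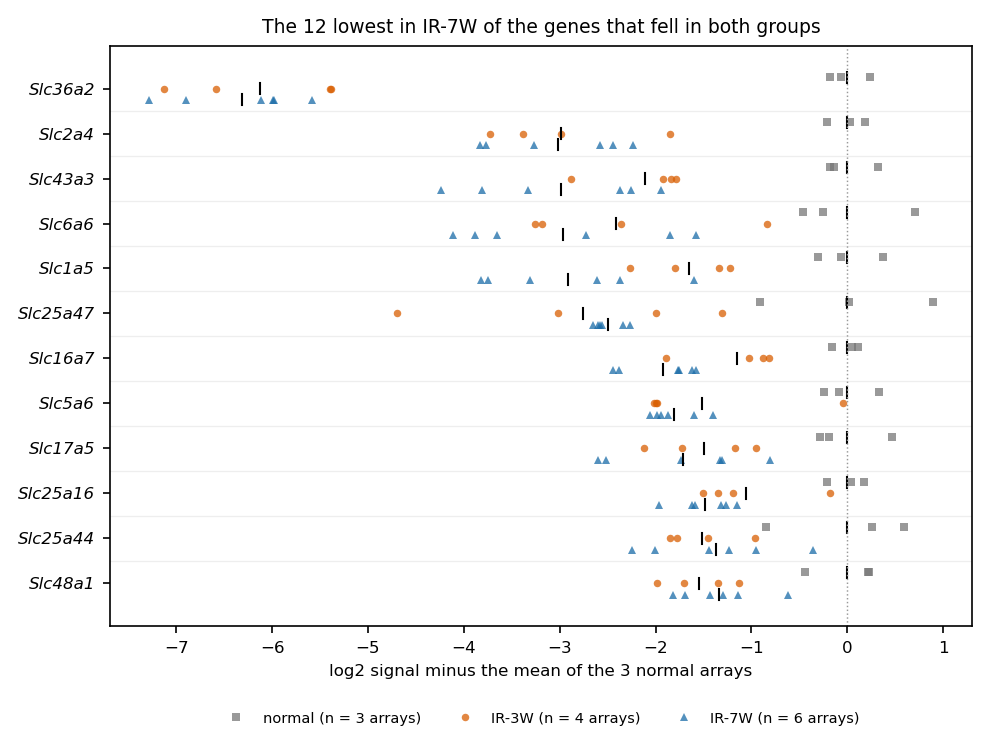
Log2 signal of each array minus the mean of the normal arrays, on the horizontal axis, for the 12 genes of lowest IR-7W difference among the 18 solute carriers that fell in both carcinoma groups. Grey squares are normal samples, orange circles IR-3W and blue triangles IR-7W carcinomas, and black ticks are group means. Slc36a2 lies far to the left of the others, and in Slc5a6 and Slc25a16 the third IR-3W carcinoma lies near the normal samples.

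Glucose carriers moved in different directions. Among 12 sugar and polyol carriers, 2 rose and 1 fell in IR-3W and 1 rose and 1 fell in IR-7W. Slc2a4, the insulin-responsive glucose transporter GLUT4, had log2 signals of 0.19, 0.43 and 0.59 in normal tissue. They were -2.98, -3.33, -1.45 and -2.58 in IR-3W and -3.43 to -1.83 (median -2.52) in IR-7W. All carcinomas lay below all normal samples, the third IR-3W carcinoma being the nearest. The fall was 2.99 ± 0.48 in IR-3W (adjusted p = 0.00143) and 3.02 ± 0.45 in IR-7W (adjusted p = 0.000555), or 7.94-fold and 8.12-fold. Both calls held in all 24 alternative settings run for each.

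Slc2a5, the fructose transporter GLUT5, rose in IR-3W. Its log2 signal was -2.99, -1.93 and -0.91 in normal tissue, 0.96, -0.52, 0.92 and 0.81 in IR-3W, and -1.49 to 0.27 (median -0.96) in IR-7W. All 4 IR-3W carcinomas lay above the normal samples, while IR-7W overlapped them. The rise was 2.49 ± 0.53 in IR-3W (adjusted p = 0.00784), or 5.61-fold, and without the third carcinoma it was 2.36 ± 0.58 (adjusted p = 0.0154). The IR-7W difference was 1.10 ± 0.49 (adjusted p = 0.133), and that between the carcinoma groups was 1.39 ± 0.45 (adjusted p = 0.208). The start region of Slc2a5 is shown as that of the highest difference in IR-3W. It lies at chr5:165865929-165866228 on the plus strand of GRCr8, with a CCAAT box read on the opposite strand in capitals.
Slc2a5: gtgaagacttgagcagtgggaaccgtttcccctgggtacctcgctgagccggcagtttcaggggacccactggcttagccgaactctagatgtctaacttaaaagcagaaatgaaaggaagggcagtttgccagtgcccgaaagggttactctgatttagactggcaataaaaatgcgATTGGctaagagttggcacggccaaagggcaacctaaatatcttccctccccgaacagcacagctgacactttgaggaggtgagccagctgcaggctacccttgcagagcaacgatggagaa

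The widely expressed glucose transporter Slc2a1 (GLUT1) had log2 signals of 3.87, 3.98 and 4.22 in normal tissue, 4.46, 6.10, 4.75 and 4.86 in IR-3W, and 3.53 to 5.22 (median 3.63) in IR-7W. All 4 IR-3W carcinomas lay above the normal samples, yet the difference of 1.02 ± 0.48 did not pass (adjusted p = 0.174). In IR-7W it was 0.03 ± 0.44. Slc2a3, a high-affinity glucose transporter of neurons, gave 1.31 ± 0.58 and -0.32 ± 0.53. Slc2a10, a glucose transporter of the Golgi and endoplasmic reticulum, was at -3.90, -2.64, -2.72 and -1.91 in IR-3W and at -6.23 to -4.43 (median -5.51) in IR-7W. Those groups did not overlap, and their difference of 2.55 ± 0.53 just missed the threshold (adjusted p = 0.0507). A second, dimmer probe of Slc2a10, well above background on 5 arrays, gave -0.41 (adjusted p = 0.734), so the probes differed in sign. The brighter probe was well above background on none of the normal arrays, on all 4 IR-3W and on 3 of the 6 IR-7W arrays. Fibroblast markers also differed between the carcinoma groups. Their summed level was 479 to 1536 in IR-3W and 134 to 310 in IR-7W, and 8 of 12 were higher in IR-3W than in IR-7W. Their part in the Slc2a10 difference was not tested.

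Slc5a2, the sodium-coupled glucose transporter of the kidney tubule, was not well above background in normal tissue (-5.36, -4.99 and -4.22). It was at -2.47, -2.63, -2.90 and -2.88 in IR-3W and at -3.81 to -1.62 (median -2.78) in IR-7W. By its fitted difference it was 4.39-fold higher in both groups (adjusted p = 0.00535 in IR-3W and 0.0025 in IR-7W). A second, dimmer probe gave 0.70 and 0.34, neither of which passed, and with normexp the IR-7W difference was -0.30, or 0.25 relative to the median of all features there. The IR-3W call was lost with normexp as well, and its lowest difference over the settings was 0.12.

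Among 9 carriers of monocarboxylates and of di- and tricarboxylates, 1 fell in IR-3W and 1 rose and 1 fell in IR-7W. Slc16a3 (MCT4), which exports lactate, had log2 signals of 1.83, 1.56 and 0.60 in normal tissue, 4.67, 3.99, 0.43 and 4.62 in IR-3W, and 2.42 to 3.72 (median 2.51) in IR-7W. It was high in 9 of the 10 carcinomas, and the third IR-3W carcinoma lay below the normal samples. The differences of 2.10 ± 0.84 (adjusted p = 0.113) and 1.50 ± 0.78 (adjusted p = 0.192) did not pass. Without the third IR-3W carcinoma both passed, at 3.1 ± 0.43 (adjusted p = 0.000632) and 1.50 ± 0.37 (adjusted p = 0.0123). Slc16a7 (MCT2), a high-affinity transporter of lactate and pyruvate, was lower in every carcinoma than in every normal sample. It fell by 1.15 ± 0.31 in IR-3W (adjusted p = 0.0268) and 1.92 ± 0.29 in IR-7W (adjusted p = 0.000621). Slc16a13, a less known member of the same family, rose by 1.26 ± 0.40 in IR-7W (adjusted p = 0.0395), a call lost in 9 of 24 alternative settings. Its IR-3W difference of 1.12 ± 0.43 did not pass (adjusted p = 0.0979). The third IR-3W carcinoma, at -1.33, lay within the normal range, and without it the difference was 1.57 ± 0.29 (adjusted p = 0.00344).

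Of 15 genes of glycolysis and lactate metabolism tested, 1 rose and 1 fell in IR-3W and 1 rose in IR-7W. Pfkm, a phosphofructokinase, rose by 1.37 ± 0.29 and 1.67 ± 0.25. Ldhb, the lactate dehydrogenase subunit of heart, fell by 2.23 ± 0.60 in IR-3W, with -1.57 ± 0.56 in IR-7W. Of 13 partners and regulators of transporters, none was called in either comparison.

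Mitochondrial carriers move metabolites across the inner mitochondrial membrane, and 31 were tested. Of these, 2 rose and 4 fell in IR-3W and 3 rose and 3 fell in IR-7W. Slc25a3, which imports the phosphate used for ATP synthesis, had log2 signals of 3.65, 4.22 and 4.42 in normal tissue, 5.53, 5.29, 5.62 and 4.99 in IR-3W, and 5.02 to 5.74 (median 5.34) in IR-7W. All carcinomas lay above all normal samples. It rose by 1.26 ± 0.27 in IR-3W (adjusted p = 0.00733) and 1.28 ± 0.25 in IR-7W (adjusted p = 0.00316). Slc25a22, a glutamate carrier, was at -0.55, -0.55 and 0.45 in normal tissue, 1.32, 0.71, 1.88 and 0.88 in IR-3W, and 0.98 to 1.62 (median 1.30) in IR-7W. It rose by 1.41 ± 0.33 (adjusted p = 0.0134) and 1.51 ± 0.31 (adjusted p = 0.00445). These 2 were well above background on all 13 arrays. Slc25a46, a mitochondrial outer membrane protein of the family, rose by 0.67 ± 0.21 in IR-7W.

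The mitochondrial carriers that fell were mostly of other kinds. Slc25a47, known from liver, fell by 2.75 ± 0.64 and 2.50 ± 0.59. Slc25a16, linked to coenzyme A, fell by 1.06 ± 0.32 and 1.48 ± 0.30, and in the third IR-3W carcinoma its level of 1.19 lay within the normal range of 1.15 to 1.54. Slc25a44, a carrier of branched-chain amino acids in brown fat, was called lower in both groups, but no normal array had it well above background, so no fold is given. Its IR-3W call was lost without the third carcinoma (adjusted p = 0.0679). Slc25a27 fell in IR-3W (-1.13 ± 0.35), and without the third carcinoma its difference of -0.99 did not pass (adjusted p = 0.0787). The ADP and ATP exchangers Slc25a4 and Slc25a5 gave differences of 0.41 ± 0.37 and -0.09 ± 0.25 in IR-3W and 0.64 ± 0.34 and -0.13 ± 0.23 in IR-7W. The citrate carrier Slc25a1, which supplies acetyl units for fatty acid synthesis, gave 0.08 ± 0.43 and -0.13 ± 0.40. None of these passed with all arrays. Without the third IR-3W carcinoma Slc25a4 passed in both groups, at 0.79 ± 0.24 (adjusted p = 0.042) and 0.64 ± 0.21 (adjusted p = 0.0447). Of 2 other, dimmer probes of Slc25a4, 1 passed in IR-7W with all arrays, at 1.16 (adjusted p = 0.0333), and the other gave 0.44 there.

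Of 29 carriers of zinc, iron, copper, magnesium and haem, 1 rose and 3 fell in IR-3W and 2 rose and 5 fell in IR-7W. Slc48a1, which carries haem out of endolysosomes, was at 1.35, 1.37 and 0.70 in normal tissue, -0.21, -0.56, -0.85 and 0.01 in IR-3W, and -0.68 to 0.52 (median -0.22) in IR-7W. It fell by 1.54 ± 0.32 (adjusted p = 0.00692) and 1.33 ± 0.30 (adjusted p = 0.00763), and both calls held in all 24 alternative settings run for each. Slc49a3 and Slc49a4, less known relatives of the haem exporter family, fell by 1.52 ± 0.32 and 1.10 ± 0.24 in IR-3W and by 1.28 ± 0.29 and 1.19 ± 0.22 in IR-7W.

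Slc11a1, a metal transporter of the phagosomes of macrophages, was at 1.06, 0.14 and -0.69 in normal tissue, 0.14, -2.11, -0.85 and -0.89 in IR-3W, and -2.97 to -1.26 (median -2.77) in IR-7W. It fell by 2.68 ± 0.52 in IR-7W (adjusted p = 0.00317), with -1.10 ± 0.56 in IR-3W (adjusted p = 0.21) and 1.58 ± 0.47 between the carcinoma groups (adjusted p = 0.164). Macrophage markers were lower in sum in IR-7W as well. Their summed level was 284 to 388 in normal tissue, 146 to 558 in IR-3W and 101 to 216 in IR-7W, and 4 of 12 fell in IR-7W against 1 rise and 1 fall in IR-3W. All but 1 of the 12 were well above background on all arrays. Within IR-7W, the second carcinoma had the lowest Slc11a1, at -2.97, and the highest macrophage sum, at 216. The sixth had the highest Slc11a1 of that group, at -1.26, with a sum of 167. Over all carcinomas the first of IR-3W was highest in both, at 0.14 and 558. The part of macrophages in the fall of Slc11a1 was not tested.

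Slc30a4 (ZnT4) is a zinc transporter that supplies zinc to milk in mice. Its log2 signal was 3.12, 3.82 and 2.31 in normal tissue, 0.81, 1.86, 2.01 and 1.90 in IR-3W, and 0.76 to 2.63 (median 1.57) in IR-7W. It fell by 1.46 ± 0.43 in IR-7W (adjusted p = 0.0285). The IR-3W difference was nearly the same, -1.44 ± 0.46, and missed the threshold (adjusted p = 0.054). Without the third IR-3W carcinoma it was -1.56 ± 0.50 (adjusted p = 0.0468). Slc30a3, a zinc transporter of synaptic vesicles, was not well above background in normal tissue. By its fitted difference it was 3.90-fold higher in IR-3W and 3.49-fold higher in IR-7W. With normexp the IR-7W difference of Slc30a3 was -0.65, or -0.10 relative to the median of all features there. The IR-3W call of Slc30a3 was lost with normexp (adjusted p = 0.991), and its lowest difference over the settings was 0.0067. Slc41a1, which carries magnesium, was at -0.76, -0.61 and -0.79 in normal tissue and rose by 0.90 ± 0.27 in IR-7W (adjusted p = 0.0305), with 0.79 ± 0.29 in IR-3W (adjusted p = 0.0852). The zinc importer Slc39a6, known as an oestrogen-regulated gene of human breast cancer, gave 0.71 ± 0.26 in IR-3W (adjusted p = 0.0841) and -0.02 ± 0.24 in IR-7W. The iron exporter Slc40a1 gave -0.43 ± 0.43 and -1.10 ± 0.40, which did not pass. Of 12 other genes of metal handling, the metallothioneins Mt1 and Mt3 fell in both groups, Mt1 by 2.20 ± 0.62 and 2.63 ± 0.57.

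Among 17 carriers of nucleosides and vitamins, 2 fell in IR-3W and 3 fell in IR-7W, and none rose. Slc5a6, which takes up biotin, pantothenate and lipoate with sodium, was at 3.94, 4.10 and 4.52 in normal tissue, 2.19, 2.17, 4.14 and 2.20 in IR-3W, and 2.13 to 2.78 (median 2.28) in IR-7W. It was low in 9 of the 10 carcinomas and at the normal level in the third IR-3W carcinoma. The fall was 1.51 ± 0.43 in IR-3W (adjusted p = 0.0321) and 1.81 ± 0.40 in IR-7W (adjusted p = 0.00674). Slc46a3, a lysosomal carrier, fell in IR-3W by 1.37 ± 0.41, and without the third carcinoma its difference of -1.22 did not pass (adjusted p = 0.0661). The nucleoside carrier of lysosomes Slc29a3 fell by 0.78 ± 0.22 in IR-7W, and Slc29a4, a monoamine and adenosine carrier, by 1.80 ± 0.58.

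Carriers of nucleotide sugars, sugar phosphates and acetyl-CoA supply the endoplasmic reticulum and Golgi. Of 19, 2 fell in IR-3W and 2 rose and 3 fell in IR-7W. Slc35b1, which exchanges ATP for ADP at the endoplasmic reticulum, was lower in every carcinoma than in every normal sample and fell by 0.89 ± 0.26 and 1.19 ± 0.24. Slc35f5, a family member of unsettled substrate, fell by 1.25 ± 0.26 and 0.81 ± 0.24, and a second probe of it gave -0.78 and -0.28, which did not pass. Slc37a3 fell by 0.77 ± 0.24 in IR-7W, and a second, dimmer probe of it gave -0.28 (adjusted p = 0.727). Slc35d2, a nucleotide sugar carrier, rose by 1.32 ± 0.32 in IR-7W. The GDP-fucose carrier Slc35c1 was 2.01-fold higher in IR-7W by its fitted difference, from a level below background in normal tissue.

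Of 8 carriers of fatty acids and choline, 1 fell in each comparison. It was Slc27a1, a fatty acid transport protein of fat and muscle, at 3.88, 3.12 and 3.44 in normal tissue, 2.15, 2.54, 0.80 and 2.29 in IR-3W, and 1.50 to 2.76 (median 2.29) in IR-7W. It fell by 1.53 ± 0.44 (adjusted p = 0.0336) and 1.29 ± 0.41 (adjusted p = 0.0398), and here the third IR-3W carcinoma was the lowest of all. A dimmer probe gave -1.24 and -0.78, which did not pass. The summed level of fat cell markers was also below the normal samples in every carcinoma. It was highest, at 251, in the third IR-3W carcinoma, where Slc27a1 was lowest. In the second, where Slc27a1 was highest of that group, the sum was the lowest, at 14.6. The sum follows its brightest markers and does not measure the share of fat cells in a carcinoma. The part of fat cells in this fall was not tested.

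Of 15 carriers of bicarbonate, phosphate, sulphate and iodide, 1 fell in each comparison. Slc4a4, a sodium bicarbonate cotransporter, was at 0.82, 0.68 and -1.83 in normal tissue, -2.46, -4.25, -3.59 and -2.14 in IR-3W, and -3.78 to -0.84 (median -1.98) in IR-7W. It fell by 3.00 ± 0.81 in IR-3W (adjusted p = 0.026), and the IR-7W difference of -1.92 ± 0.75 did not pass (adjusted p = 0.0874). Slc4a7, its electroneutral relative, fell by 1.09 ± 0.31 in IR-7W. Its IR-3W difference was -0.75 ± 0.33 (adjusted p = 0.15), and without the third carcinoma -1.01 ± 0.29 (adjusted p = 0.0294).

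Of 15 carriers of sodium, potassium, calcium, chloride and protons, 1 fell in IR-3W and 1 rose and 2 fell in IR-7W. Slc8a1, a sodium calcium exchanger, fell by 1.87 ± 0.42 in IR-7W, and a second probe, well above background on 3 arrays, gave -0.055. Slc9a8, a sodium proton exchanger of the Golgi, was 2.30-fold higher in IR-7W by its fitted difference, from below background. With normexp that difference was -1.12, or -0.57 relative to the median of all features there. Slc12a2, the sodium, potassium and chloride cotransporter of secretory epithelia, gave -0.67 ± 0.49 and 0.45 ± 0.46, which did not pass.

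Of 13 carriers of neurotransmitters and of vesicle uptake, 1 fell in IR-3W and 1 rose and 2 fell in IR-7W. Slc17a5 (sialin), which exports sialic acid from lysosomes, fell by 1.49 ± 0.45 and 1.71 ± 0.41. Slc32a1, the vesicular transporter of GABA and glycine, fell by 0.79 ± 0.22 in IR-7W. Slc18a1, a vesicular monoamine transporter of neuroendocrine cells, had the highest difference of the 229 genes in IR-7W. It was at -5.44, -5.96 and -6.22 in normal tissue, below background, at -1.36, -4.83, -4.09 and -4.68 in IR-3W, and at -3.47 to -1.28 (median -2.49) in IR-7W. Slc18a1 was at least 9.84-fold higher in IR-7W (adjusted p = 0.00485), and in IR-3W its adjusted p was 0.0742. With normexp the differences were -0.046 in IR-3W and -0.20 in IR-7W, or 0.16 and 0.36 relative to the medians of all features there.

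Of 18 carriers of organic ions, bile acids and urea, 1 rose in each comparison. It was Slc22a12, the urate transporter of the kidney tubule, from below background in normal tissue. By its fitted difference it was 3.92-fold higher in IR-3W (adjusted p = 0.0093) and 2.88-fold higher in IR-7W (adjusted p = 0.0182). A second probe of Slc22a12 gave 0.97 and 1.28, which did not pass, and with normexp the IR-7W difference was -1.11, or -0.56 relative to the median of all features there. The IR-3W call was lost with normexp as well, and its lowest difference over the settings was 0.091. The one gene left outside the classes, Slc66a3, gave 1.08 ± 0.46 (adjusted p = 0.135) and 0.98 ± 0.42 (adjusted p = 0.121), which did not pass. Without the third IR-3W carcinoma both passed, at 1.58 ± 0.27 (adjusted p = 0.00238) and 0.98 ± 0.24 (adjusted p = 0.0111). A second, dimmer probe of Slc66a3, well above background on all 13 arrays, did not show this rise. With all arrays it gave -0.08 in IR-3W (adjusted p = 0.952) and 0.10 in IR-7W (adjusted p = 0.923).

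**Figure D3:**
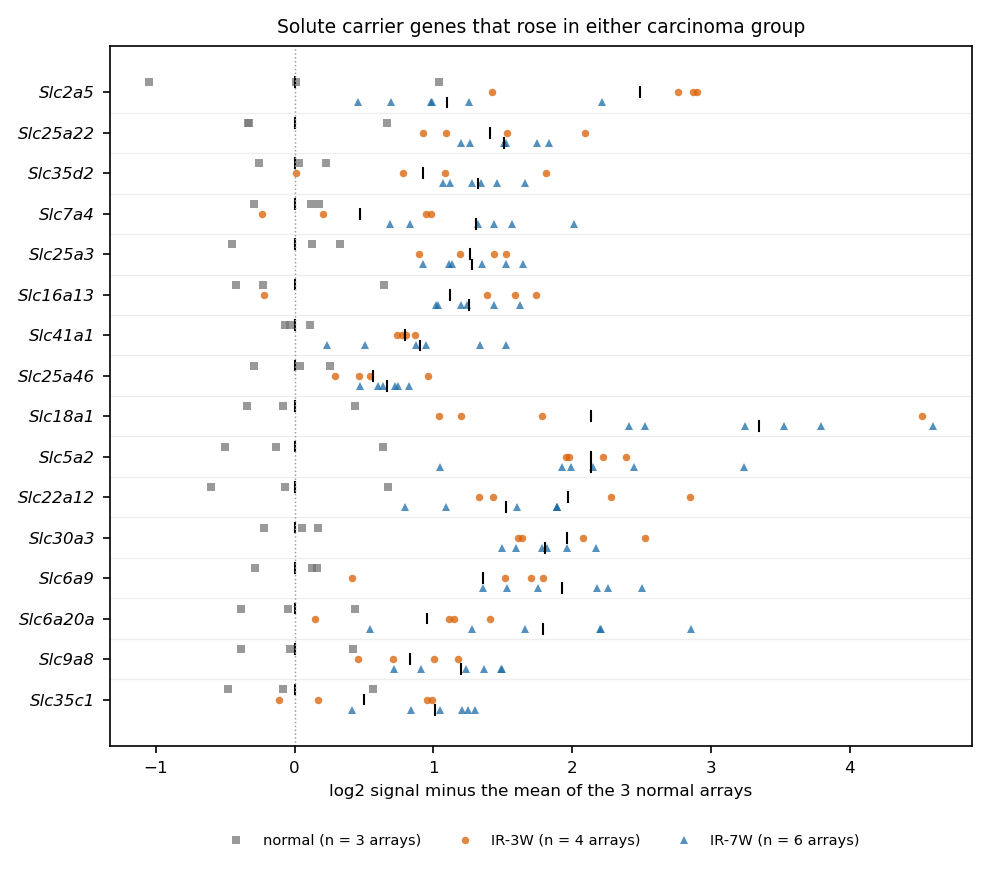
Log2 signal of each array minus the mean of the normal arrays, on the horizontal axis, for the 16 solute carrier genes that rose in IR-3W or IR-7W, with symbols as for the genes that fell. The upper 8, from Slc2a5 to Slc25a46, were well above background on all normal arrays, and the lower 8, from Slc18a1 down, on none.

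Many of the rises were of genes that no normal array measured well above background. Of the rises, 4 of 7 in IR-3W and 8 of 15 in IR-7W were of genes well above background on no normal array. Of the falls, 20 of 22 and 27 of 30 were of genes well above background on all normal arrays. Over the 229 genes, 160 were well above background on all normal arrays and 44 on none. The genes that rose from below background on all normal arrays passed the filter through carcinoma arrays alone. A rise was thus favoured in them before any test, which limits what their p-values mean. The same share over all features was not counted. The part of the dimmer normal arrays in these rises was not tested. Counting only the 160 genes measured on all normal arrays left 23 calls in IR-3W and 34 in IR-7W.

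The direct comparison of IR-3W with IR-7W carcinomas called 1 of the 229 genes, or 0.437%, against 0.740% of all 25392 features (0.591% higher and 0.150% lower). With a symbol, 0.712% were higher and 0.228% lower. The groups did not overlap in 4 genes higher and 3 lower in IR-3W, against 1.57% and 1.34% of all features. At an unadjusted p under 0.05 there were 39. The gene was Slc12a8, a member of the cation chloride cotransporter family that carries a precursor of NAD in mouse intestine. Its log2 signal was -2.50, -4.35 and -2.78 in normal tissue, -2.92, -4.09, -4.48 and -4.08 in IR-3W, and -3.01 to -1.29 (median -1.53) in IR-7W. All but 1 of the 6 IR-7W carcinomas lay above all IR-3W carcinomas, and that one overlapped them. Slc12a8 was lower in IR-3W by 2.13 ± 0.44 (adjusted p = 0.0489). The call rests near the threshold and was lost in 19 of 25 alternative settings, 10 of which left out 1 array. Without the third IR-3W carcinoma the difference was -1.93 (adjusted p = 0.101). Against normal tissue the IR-7W difference of 1.45 ± 0.49 missed the threshold (adjusted p = 0.0504), and without that carcinoma its adjusted p was 0.0448. On slide 2, which held 2 carcinomas of each group, it was -2.06 and did not pass. Slc41a2, a magnesium carrier, was not called with all arrays (1.97 ± 0.46, adjusted p = 0.0715), and without the third IR-3W carcinoma it was higher in IR-3W (2.39 ± 0.43, adjusted p = 0.0363).

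The carcinomas differed widely among themselves in some carriers. Of the 161 solute carriers well above background on all 10 carcinomas, the median range was 1.71 on the log2 scale, against 1.53 over 18292 features. In 14 of them, or 8.70%, the range was over 4, against 3.93% of those features. The third IR-3W carcinoma was the highest array in 7 of these 14 and the lowest in 2. These 14 were picked after their values were seen, and no test was made of them.

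Among the 14, Slc34a2 and Slc30a2 are known from milk secretion. Slc34a2, a sodium phosphate cotransporter of secretory epithelia, was at -4.21, -5.29, 1.90 and -1.39 in IR-3W, -4.11 to 0.23 (median -3.0) in IR-7W and -0.55, 0.77 and -1.38 in normal tissue. Slc30a2 (ZnT2), which loads zinc into milk vesicles, was at -2.09, -3.17, 2.90 and -3.34 in IR-3W and at -2.61 to -1.46 (median -2.27) in IR-7W. In normal tissue it was at -1.79, -2.68 and 2.36, so that 1 normal sample was nearly as high as the third IR-3W carcinoma. The nucleoside carrier Slc28a2 was at 5.23 in that carcinoma, against 2.07, 0.17 and 0.76 in the others of its group and 2.45 to 3.48 in normal tissue. Slc28a2 did not pass against normal tissue (-0.90 ± 0.95 and -2.11 ± 0.88). Without that carcinoma it did, at -1.95 ± 0.60 (adjusted p = 0.0409) in IR-3W and -2.11 ± 0.52 (adjusted p = 0.012) in IR-7W. Slc39a8, an importer of zinc and manganese, was at 3.75 there, against 1.06, -0.22 and 1.38. The milk protein sum was also highest there, and its part in these levels was not tested.

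Slc5a5, the iodide transporter of thyroid and lactating mammary gland, was not well above background on all carcinomas and is not among the 14. It was at -5.77, -3.07, 2.63 and -4.59 in IR-3W, -4.35 to -0.52 (median -2.48) in IR-7W, and -2.93, -0.90 and -3.96 in normal tissue. Its differences from normal tissue were -0.10 ± 1.60 and 0.17 ± 1.48. Slc26a4 (pendrin), an exchanger of iodide, chloride and bicarbonate, ranged from -5.20 to 1.45 over the carcinomas and was highest in the first of IR-3W.

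**Figure D4:**
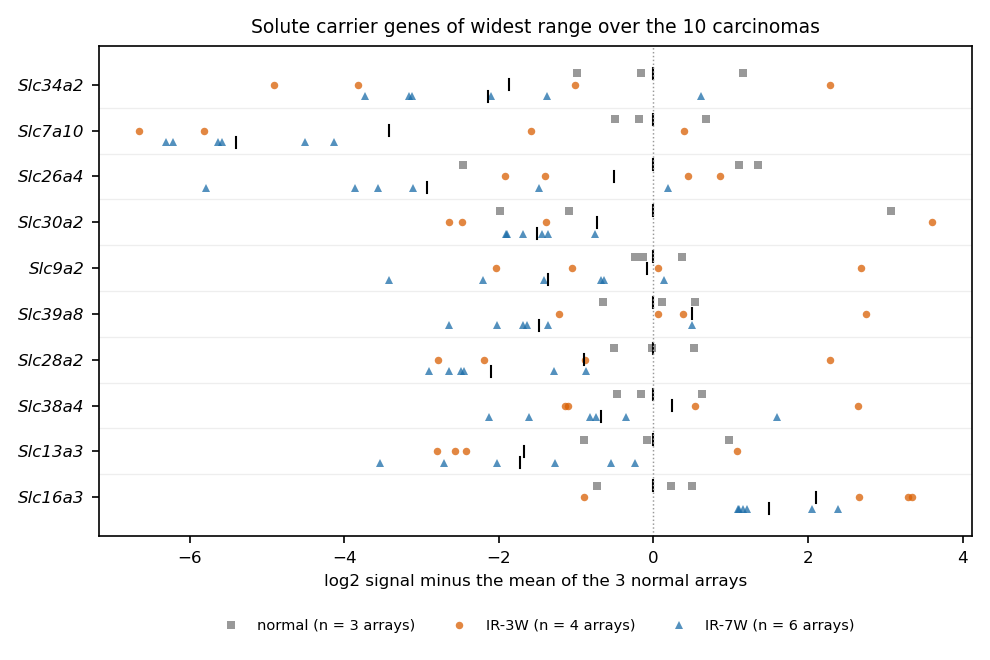
Log2 signal of each array minus the mean of the normal arrays, on the horizontal axis, for the 10 solute carrier genes with the widest range over the carcinomas, with symbols as for the genes that fell. In Slc34a2, Slc7a10, Slc30a2, Slc9a2, Slc39a8, Slc28a2 and Slc38a4 the rightmost carcinoma is the third of IR-3W, which is the leftmost one in Slc16a3.

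Start regions of 300 bases were searched for 6 motifs on both strands. RefSeq's GRCr8 table held 194 of them for 183 of the 229 genes, and 11 of the 18 genes that fell in both groups had one. The nuclear receptor half-site AGGTCA was in 5 of these 11 regions, or 45.5%, against 12.9% of the regions of all solute carriers tested and 16.2% of all regions. CCAAT boxes were in 7, or 63.6%, against 38.7% and 37.5%. A GC box was in 45.5% of the 11, in 57.7% of solute carrier regions and in 33.1% of all regions. The direct repeat bound by PPAR and RXR, which is this half-site repeated after 1 free base, was in none of the 11 and in 0.0538% of all regions, and the site of ATF4 and CHOP (TGATGNAAT) was in 1.03% of the solute carrier regions and 1.09% of all. TATAAA was in 5.15% of solute carrier regions and 14.2% of all. Every direct repeat also counts as a half-site. These are counts of letters in a window, with no test.

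Beyond the solute carriers, 19 ABC and Slco transporters were tested. Of these, 4 fell in IR-3W, and 1 rose and 5 fell in IR-7W. Abcd2, a peroxisomal carrier of very long chain fatty acids, had the largest differences of the 19, from 1.94 in normal tissue to -6.84 in IR-3W and -6.78 in IR-7W, and was well above background on 1 of the 10 carcinomas. Slco3a1, an organic anion transporter, fell by 2.08 ± 0.47 and 2.61 ± 0.43.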

How the data were processed

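Total RNA was labelled with Cy3 and hybridised to 1-colour Agilent rat arrays (13 arrays). Per the file headers, signal intensity was extracted by the authors with Agilent Feature Extraction 10.7.3.1, which subtracts background. The deposited log2 values of the series were used as an alternative. They equal the log2 signal less the 75th percentile and less the normal samples' mean, within 0.01 for 99.4% to 99.6% of values after a constant shift per array, and 29.5% to 52.2% are blank. The column medians of these values lay between -0.20 and 0.05. Here, log2 of the processed signal minus each array's 75th percentile was used. Control spots were left out, spots of a probe averaged, and probes well above background on 3 or more arrays kept (29339 of 41012). RefSeq accessions gave symbols through the GRCr8 table for 16815 of 20503 probes with an accession. The probe of highest mean stood for a gene, leaving 25392 features.

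Groups were compared with limma 3.58.1 (R 4.3.3) in 1 fit over 13 arrays, with Benjamini-Hochberg adjustment over all features and a threshold of 0.05. Fits were tested on simulated data. A fold against a group not well above background was computed against the lowest signal well above background on each array or the probe's own signal, whichever was higher. For Slc18a1 the former was higher, so its fold is given as a bound. For the other genes the fold equals the fitted one. None of these folds allows for sampling error. Of 58 genes with several probes, the sign differed between probes in 17, 18 and 19 and the call in 17, 16 and 2 (IR-3W and IR-7W against normal, IR-3W against IR-7W), and none had opposite calls. The number of arrays limits precision. The genes named were, per comparison, the 8 highest and 8 lowest called genes whose groups did not overlap, the 2 of smallest p per class and a list of known carriers. Other called genes and those of widest range were chosen after their values were seen. Members, classes and lists were chosen with earlier results of these data known. Normexp used the median spot signal, in place of the mean signal planned, with an offset of 50. Replicate numbers did not pair samples, with correlations of same-numbered samples between -0.21 and 0.08. The values of 1 called gene are not reported here.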

Additional observations from a re-analysis of the deposited data

Results flagged for a closer look

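Among named genes, 9 of 152 gene and group pairs had 1 array far from the others of its group. Chance gives about 1 in 20. In IR-3W, the third carcinoma was apart in 3 genes. Slc16a3 was at 0.43 there, against 3.99 to 4.67 in the others. Slc43a3 was at -6.10, against -5.15 to -5.01. Slc5a6 was at 4.14, against 2.17 to 2.20. The second IR-3W carcinoma was apart in Slc2a5 (-0.52, against 0.81 to 0.96), Slc35b4 (1.71, against 0.94 to 1.07) and Slc39a6 (3.98, against 3.42 to 3.45). The first was apart in Slc30a4 (0.81, against 1.86 to 2.01).

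In IR-7W, the sixth carcinoma was apart in Slc11a1 (-1.26, against -2.97 to -2.41) and in Slc12a8 (-3.01, against -1.80 to -1.29). Slc12a8 was also the one solute carrier whose difference from normal tissue differed between the carcinoma groups, by -2.13 in limma's test of IR-3W against IR-7W.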

How the results depend on the processing

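The counts of 29, 45 and 1 genes called (IR-3W and IR-7W against normal, IR-3W against IR-7W) depended on the processing. Normexp gave 9, 115 and 67 and moved the median of all features to -0.21, -0.55 and 0.39. Without a filter on dim probes they were 66, 99 and 0, and with array weights 92, 108 and 21. Fitting only the groups compared gave 10 in IR-3W, 62 in IR-7W and 0 between carcinomas. Leaving out 1 array gave 12 to 40, 28 to 60 and 0 to 3. The comparison of carcinomas gave 0 with quantile normalization, median scaling, the filter on all arrays, the deposited values, slide 2 alone and slide as a fixed block, 2 with the mean of probes and 3 with slide as a random block. With a replicate block the counts were 6, 16 and 0, although the numbers do not pair the samples. Counting only genes well above background on all normal arrays, a setting added after seeing the data, gave 23 and 34. The cause of these changes was not tested.

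Of the single-gene results, 2626 kept direction and side of the threshold, 218 lost the call, 133 gained one and 17 turned, all 17 with normexp. Relative to the median of all features there, 9 of the 17 were turned and 8 were not. Against normal tissue these were Slc18a1 (-0.046), Slc6a9 (-0.16) and Slc9a8 (-0.26) in IR-3W. In IR-7W they were Slc12a8 (-0.068), Slc18a1 (-0.20), Slc22a12 (-1.11), Slc25a23 (-0.45), Slc30a3 (-0.65), Slc4a1 (-0.52), Slc5a2 (-0.30), Slc6a20a (-0.93), Slc6a9 (-0.65) and Slc9a8 (-1.12). Between carcinomas they were Slc22a23 (0.61), Slc25a30 (0.53), Slc4a1 (0.30) and Slc6a20a (0.74). Signal over background limits the dim genes, and the normal arrays were the dimmest.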
